A study of Mus musculus with 14 samples.

Results

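Integrins are the receptors by which cells hold on to extracellular matrix, and 10 integrin subunit genes were followed here through the reprogramming of epidermal stem cells (EpdSCs) by SOX9. The genes were *Itga2*, *Itga3*, *Itga5*, *Itga6* and *Itgav*, which encode alpha subunits, and *Itgb1*, *Itgb4*, *Itgb5*, *Itgb6* and *Itgb8*, which encode beta subunits. They were chosen by gene symbol among the 54332 genes of the time-course table, and all 10 were among the 13110 genes tested. EpdSCs are the stem cells in the basal layer of the epidermis, and RNA-seq of sorted EpdSCs gave 10 libraries, 2 for each of 5 timepoints. All cells carried *K14rtTA*, a doxycycline-dependent activator driven by the *Krt14* promoter of basal keratinocytes, and *TRE-myc-Sox9*, the MYC-tagged transgene that it switches on, in CD1 mice labelled male. D0 cells came from P21 mice before doxycycline (DOX), and W1, W2 and W6 cells from mice aged P28, P35 and P63 that had received DOX since P21. W12 cells came from P0 skin grafted onto female Nude hosts and given DOX for 12 weeks once the grafts had healed. Grafting cannot therefore be told apart from 12 weeks of SOX9, nor age from time on DOX at W1 to W6, and no age-matched RNA without the transgene was analysed here. The 4 further libraries of the series, from embryonic hair placodes, entered no comparison.

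An integrin is a pair of one alpha and one beta subunit, and the pair decides which ligand is bound. In the epidermis α6β4 anchors basal cells to laminin in hemidesmosomes, where the plakins *Plec* and *Dst* link it to keratin. The β1 subunit pairs with α3 to bind laminin, with α2 to bind collagen and with α5 to bind fibronectin, and these pairs sit in focal adhesions that reach the actin cytoskeleton. The αv subunit pairs with β5, a vitronectin receptor, and with β6 and β8, which bind the latent form of TGF-beta and release or present the active cytokine. The sort itself used an integrin: EpdSCs were gated as CD49f-high, and CD49f is the protein of *Itga6*. The same gate was CD34-negative, Ly6A-high and negative for CD31, CD45, CD117 and CD140a.

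Values are transcript abundances (TPM), which divide by transcript length and fix each library's total, so that levels can be compared between genes while the depth behind a value is unknown. *MYC-SOX9* had 45.6 and 89.6 TPM at D0 and between 606 and 3414 TPM in the 8 later libraries. The summed TPM of 4 basal keratinocyte markers lay between 56208 and 58287 at D0 and between 34719 and 45369 in the later libraries, lowest at W6 (34719 and 35266), where several integrins fell. Within it *Krt15* had 11241 and 11928 TPM at D0, 429 and 1350.1 TPM at W6 and 322 and 242 TPM at W12, while *Krt14* had 29902 and 31097 TPM at D0, 24719 and 25508 TPM at W6 and 35371 and 37666 TPM at W12, and the part of such a shift in the results was not tested. That of 5 endothelial markers was between 0.149 and 2.00 TPM in the first 8 libraries but 47.8 and 105 TPM at W12, where all 5 were detected, *Pecam1* (the gene of CD31) at 26.1 and 59.8 TPM. *Cd34* had 16.5 and 32.0 TPM at W12 and at most 5.04 TPM before, although the gate excluded both proteins. Stress and dissociation genes summed to between 23816 and 38060 TPM at D0 and between 4046 and 10249 TPM later, a difference that runs with every comparison against D0 and whose part in the results was not tested. The immediate-early genes of the list carried it, while *Hspa1a*, a heat shock gene, had 183 and 116 TPM at D0 and 376 and 359 TPM at W2. Despite the male label *Xist* had 4.61 TPM in D0 replicate 2, where *Ddx3y*, a gene of the Y chromosome, had 0.0278 TPM, while D0 replicate 1 had 32.1 TPM of *Ddx3y* and 0.00103 TPM of *Xist*. Both W12 libraries held the 2 together, *Xist* at 5.51 and 3.50 TPM and *Ddx3y* at 11.0 and 12.9 TPM. In bulk samples, fewer cells of a type and less RNA per cell cannot be told apart.

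Before DOX, EpdSCs held mostly laminin receptor subunits. At D0 *Itga6* led with a mean of 243 TPM, followed by *Itgb4* with 186, *Itga3* with 136 and *Itgb1* with 127 TPM, and each neighbour in this order overlapped the next in its replicate values. *Itgav* came next with a mean of 52.6 TPM, then *Itgb5* with 35.2, *Itgb6* with 12.3, *Itga2* with 9.55, *Itga5* with 3.69 and *Itgb8* with 1.22 TPM, and from *Itgb1* down no neighbours overlapped. At W12 the order had changed. *Itgb1* led with a mean of 218 TPM and *Itga6* followed with 166 TPM, while *Itgb4* had 55.2 TPM. *Itgav* (30.6 TPM), *Itgb5* (30.3 TPM) and *Itga3* (28.9 TPM) came next and overlapped. *Itgb6* had 16.2 TPM, and the last in the order, *Itga2* (11.2 TPM), *Itga5* (9.46 TPM) and *Itgb8* (6.44 TPM), overlapped their neighbours among these 3. The plot of TPM by timepoint shows all libraries.

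**Figure D1:**
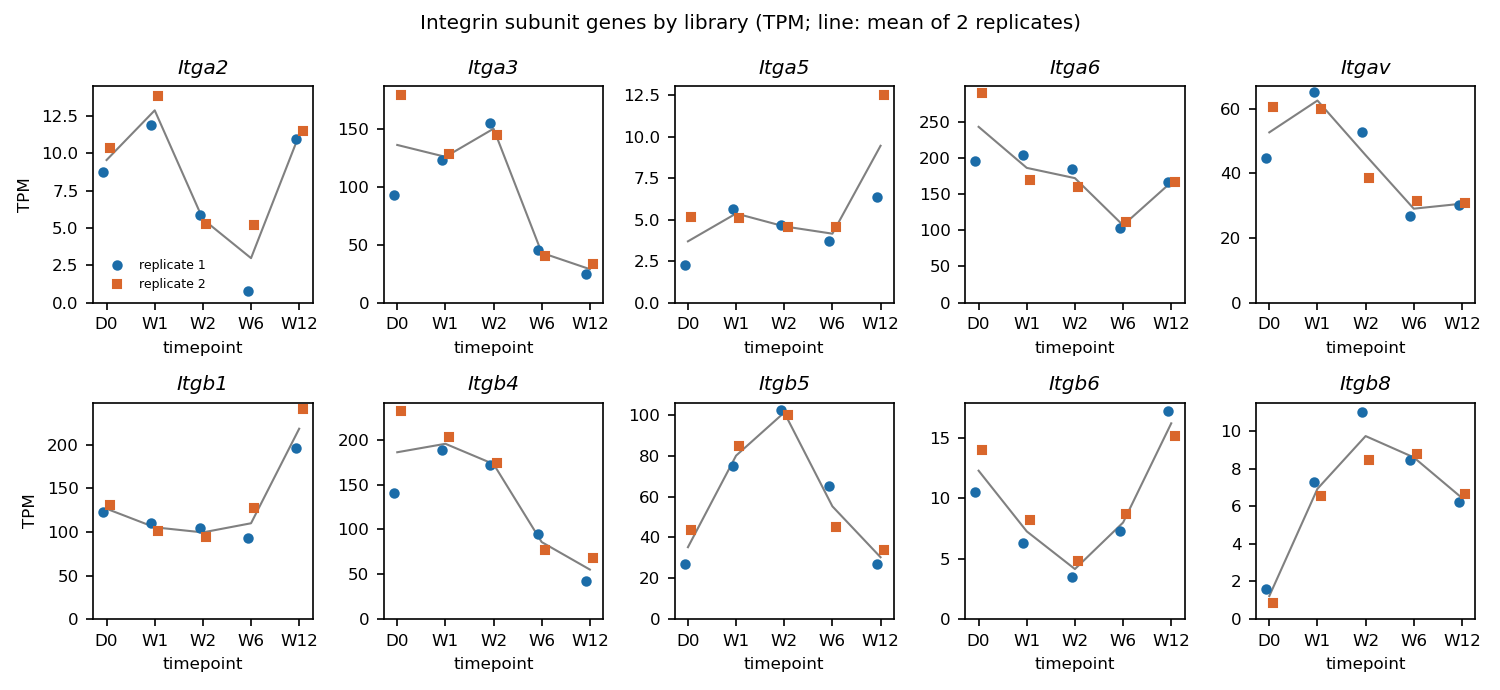
TPM of the 10 integrin subunit genes (vertical axes) at the 5 timepoints from D0 to W12 (horizontal axes), with a point for each of the 2 libraries of a timepoint and a line through their means. *Itga3* and *Itgb4* have their lowest points at W12, *Itgb5* is highest at W2 and *Itgb8* is lowest in both D0 libraries.

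Changes were tested with limma on log2(TPM + 1), with Benjamini-Hochberg adjustment over all 13110 genes, and a gene was said to rise or fall at an adjusted *P* under 0.05. At W1 against D0, 2 integrins rose and none fell, where 5.79% of all genes tested rose and 4.1% fell. At W2, 2 rose and 1 fell, against 9.06% and 6.64% of all genes. At W6, 1 rose and 5 fell, against 18.3% and 14.1% of all genes. At W12, 3 rose and 3 fell, against 17.9% and 25.1% of all genes. The median log2 change of the 10 integrins was 0.19 at W1 (0.09 over all genes tested), −0.13 at W2 (0.06 over all genes), −0.69 at W6 (0.08) and 0.02 at W12 (−0.08). Median-ratio scaling of the libraries moved the median of all genes at W1 from 0.09 to −0.01. In limma's F test over the 4 comparisons with D0, 9 of the 10 passed, where 57.5% of all genes did, and *Itga5* did not (adjusted *P* = 0.104). The calls at W1 and W2 were those of *Itgb5*, *Itgb8* and *Itgb6*, which are among the beta partners of αv. The falls at W6 were those of 4 alpha subunits and *Itgb4*, as the plot of log2 changes shows gene by gene. All 4 comparisons share the D0 libraries.

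**Figure D2:**
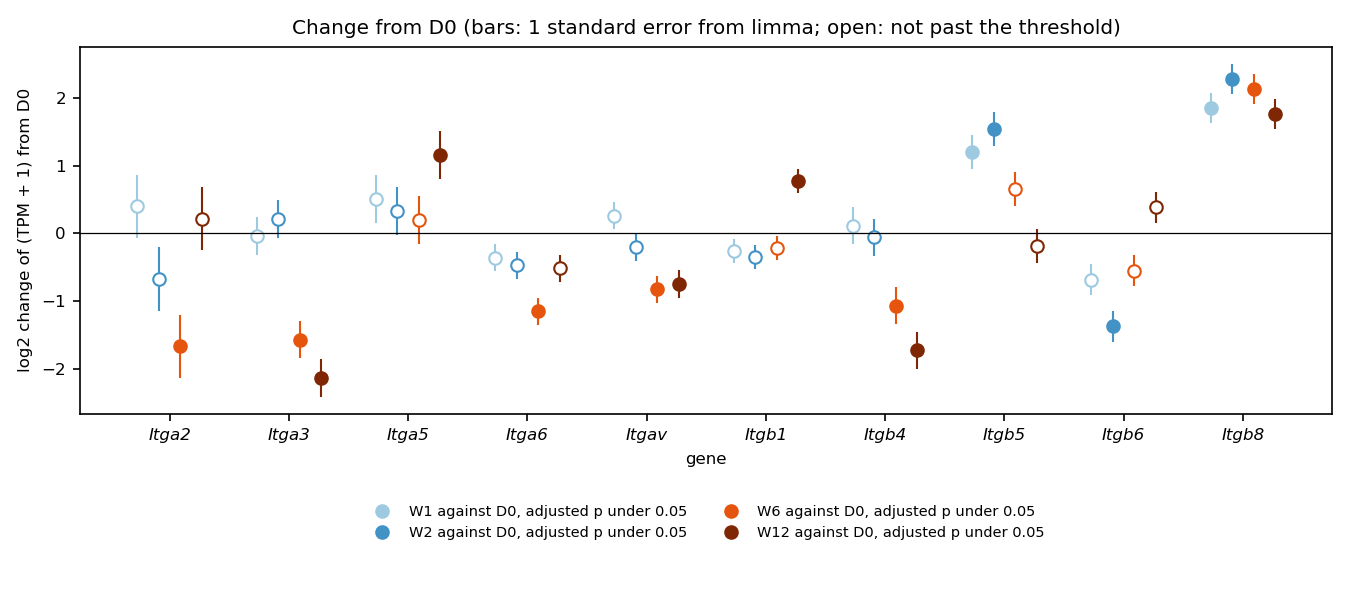
Log2 change in TPM + 1 of each integrin at W1, W2, W6 and W12 against D0. Bars are 1 standard error from limma, and filled points have an adjusted *P* under 0.05. *Itgb8* lies above 0 at all 4 timepoints, and *Itga3* and *Itgb4* lie below it at W6 and W12.

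The laminin receptor genes *Itgb4*, *Itga3* and *Itga6* were not called at W1 or W2 and fell at W6, and the first 2 of them fell at W12 as well. *Itgb4* (chromosome 11, 115974709 to 116008412 on the plus strand, GRCm38), the hemidesmosome subunit with the long cytoplasmic tail that binds plectin, had 140.0 and 232 TPM at D0, 188 and 203 at W1 and 171 and 174 at W2. It then had 95 and 76.7 TPM at W6 and 42.2 and 68.2 TPM at W12. All 4 late libraries were below all 6 earlier ones. *Itgb4* fell by a log2 change of −1.07 at W6 (standard error (SE) 0.27, adjusted *P* = 0.0187) and of −1.73 at W12 (SE 0.27, adjusted *P* = 0.00158), where its mean TPM was 0.297 of that at D0. The fall at W12 passed under all 12 alternative settings. At W6 it lost its call without D0 replicate 2 (−0.71, adjusted *P* = 0.111) and without W6 replicate 2 (adjusted *P* = 0.0891), with no filter on TPM (0.0776) and with only the D0 and W6 libraries in the fit (0.0901). The exons of *Itgb4* share 130 bases with a long non-coding RNA gene on the opposite strand.

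*Itga3* (chromosome 11, 95044474 to 95076801 on the minus strand), the laminin-binding partner of β1, followed the same course. It had 93.1 and 179.6 TPM at D0, 124 and 128 at W1, 156 and 145 at W2, 45.7 and 40.4 at W6 and 24.5 and 33.3 TPM at W12. Both W12 libraries lay below both W6 libraries, and these below all 6 earlier ones. *Itga3* fell by −1.57 at W6 (SE 0.28, adjusted *P* = 0.00398) and by −2.14 at W12 (SE 0.28, adjusted *P* = 0.000583), the lowest change of any integrin, with a mean TPM of 0.212 of that at D0. The W12 value passed in all 12 alternatives, while the W6 value had an adjusted *P* of 0.0534 in a fit of the 4 libraries of D0 and W6 alone. Across the 10 libraries the gene most like *Itga3* among the other 9 integrins was *Itgb4*, with Pearson's *r* of 0.976 between their log2(TPM + 1) values.

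*Itga6* (chromosome 2, 71745616 to 71858416 on the plus strand), the partner of β4 and the protein on which cells were gated, was lowest at W6. Its TPM were 196 and 289.7 at D0, 203 and 169 at W1, 185 and 159 at W2, 102 and 111 at W6 and 166 in each W12 library. The W6 libraries were the lowest, and those of W12 lay within the range of W1 and W2. *Itga6* fell by −1.15 at W6 (SE 0.20, adjusted *P* = 0.00335), and had a change of −0.52 at W12 (95% confidence interval −0.96 to −0.07, adjusted *P* = 0.0614). Without D0 replicate 1, at 196 TPM, the W12 change was −0.80 (adjusted *P* = 0.0058), and changes at W1 (adjusted *P* = 0.0402) and W2 (adjusted *P* = 0.0186) also passed. The W12 change passed after quantile normalization as well (adjusted *P* = 0.0414). With only the D0 and W6 libraries in the fit the W6 change had an adjusted *P* of 0.0536. The ratio of *Itga6* to *Itgb4* TPM was 1.40 and 1.25 at D0, between 0.831 and 1.45 at W1 to W6, and 3.94 and 2.44 at W12.

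The other hemidesmosome genes were listed as well: *Col17a1*, the transmembrane collagen, the plakins *Dst* and *Plec*, and *Cd151*, a tetraspanin that binds α3β1 and α6β4. None of the 4 was called at W1 or W2, and 3 fell at W6 and at W12, with a median change of −1.17 and −1.54, where 14.1% and 25.1% of all genes fell. Without D0 replicate 2 there was 1 call of a rise at W1 and 1 of a fall at W6. *Col17a1* had 686 and 1083 TPM at D0 and 224 and 283 TPM at W12 (−1.77, adjusted *P* = 0.000951). *Dst* had 82.4 and 120.1 TPM at D0 and 41.4 and 37.5 TPM at W12 (−1.31, adjusted *P* = 0.00286). The plectin gene *Plec* had 120.2 and 268 TPM at D0 and 47.9 and 32.1 TPM at W12 (−2.17, adjusted *P* = 0.00201), so for these 3 genes both W12 libraries lay below both D0 libraries. The W6 falls of *Dst* and *Plec* lost their calls without D0 replicate 2 (*Dst* −0.78, adjusted *P* = 0.0679; *Plec* −0.72, adjusted *P* = 0.141), and that of *Plec* also without W6 replicate 2 (adjusted *P* = 0.135). Both lost them too with no filter on TPM (0.0501 and 0.106) and with only the D0 and W6 libraries in the fit (0.101 and 0.126). *Cd151* had 22.2 and 21.3 TPM at D0 and 21.6 and 44.2 TPM at W12, a change of 0.49 (adjusted *P* = 0.269) that was −0.0068 without W12 replicate 2.

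The earliest calls, at W1 and W2, were those of *Itgb8*, *Itgb5* and *Itgb6*, which are among the beta partners of αv. *Itgb8* (chromosome 12, 119158022 to 119238802 on the minus strand), whose product binds latent TGF-beta on the cell surface, had 1.60 and 0.845 TPM at D0, the lowest level of the 10 genes. It had 7.31 and 6.54 TPM at W1, 11.0 and 8.45 at W2, 8.44 and 8.75 at W6 and 6.23 and 6.65 TPM at W12. All 8 libraries after DOX lay above both D0 libraries. *Itgb8* rose by 1.85 at W1 (SE 0.22, adjusted *P* = 0.00166) and 2.28 at W2 (SE 0.22, adjusted *P* = 0.000495). It stayed higher by 2.13 at W6 (adjusted *P* = 0.000377) and by 1.76 at W12 (adjusted *P* = 0.000519). Mean TPM were 5.66, 7.95, 7.02 and 5.26 times those at D0, larger than 2 raised to these changes because the added 1 weighs on a low level. Each of the 4 rises passed in every alternative tried, and this gene had the largest F of the integrins (34.2).

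*Itgb5* (chromosome 16, 33829665 to 33949338 on the plus strand), which with αv binds vitronectin, was highest at W1 and W2. It had 27.0 and 43.5 TPM at D0, 75.3 and 85.0 at W1, 102 and 100.1 at W2, 65.4 and 45.1 at W6 and 26.9 and 33.8 TPM at W12. The W1 and W2 libraries stood above all others, and those of W12 overlapped D0. *Itgb5* rose by 1.20 at W1 (SE 0.25, adjusted *P* = 0.0191) and by 1.53 at W2 (SE 0.25, adjusted *P* = 0.00482), which are 2.27 and 2.87 times the mean TPM at D0. The W2 rise passed in all 12 alternatives. That at W1 lost its call without W1 replicate 1 (adjusted *P* = 0.0765), W1 replicate 2 (0.145) or D0 replicate 1 (0.0533), after median-ratio scaling (0.0521), with no filter on TPM (0.0978) and with only the D0 and W1 libraries in the fit (0.106). At W6 the change was 0.65 and not called (adjusted *P* = 0.0784), except without D0 replicate 2 (adjusted *P* = 0.0292) or W6 replicate 2 (adjusted *P* = 0.048). The summed TPM of 5 hair follicle stem cell markers ran with these values, at 31.2 and 46.5 at D0, 81.5 and 79.96 at W1, 95.4 and 84.5 at W2, 65.9 and 59.3 at W6 and 37.5 and 56.7 at W12, and their part in the result was not tested. *Nfatc1* (20.7 and 28.3 TPM at D0, 61.8 and 61.2 at W1) and *Tcf7l2* made up most of this sum at D0 to W6, while *Lhx2* (1.47 and 4.08 TPM at D0, 0.982 and 0.904 at W1) and *Lgr5* (0.423 and 0.593 at D0, 0.122 and 0.0455 at W1) were lower at W1, and *Cd34* was at or below 0.383 TPM up to W2.

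*Itgb6* (chromosome 2, 60598292 to 60722643 on the minus strand), an epithelial subunit known for its induction in wounds, moved the other way. Its TPM were 10.5 and 13.99 at D0, 6.27 and 8.22 at W1, 3.44 and 4.82 at W2, 7.28 and 8.67 at W6 and 17.2 and 15.1 at W12. The W2 libraries were the lowest and the W12 libraries the highest of the 10. *Itgb6* fell by −1.37 at W2 (SE 0.23, adjusted *P* = 0.00522), and was not called at W12, where the 95% confidence interval ran from −0.14 to 0.90. The fall at W2 had an adjusted *P* of 0.0527 without W2 replicate 1 and 0.0506 with only the D0 and W2 libraries in the fit. At W6 the change was called after median-ratio scaling alone (−0.69, adjusted *P* = 0.0488).

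*Itgav* (chromosome 2, 83724397 to 83806916 on the plus strand), the alpha subunit that these 3 share, had 44.7 and 60.6 TPM at D0, 65.1 and 59.9 at W1 and 52.6 and 38.5 at W2. It had 26.7 and 31.4 TPM at W6 and 30.3 and 30.9 TPM at W12, so that the 4 late libraries were below the 6 earlier ones. *Itgav* fell by −0.83 at W6 (SE 0.20, adjusted *P* = 0.0148) and −0.75 at W12 (SE 0.20, adjusted *P* = 0.0164). The W6 fall lost its call without D0 replicate 2 (adjusted *P* = 0.0847) or W6 replicate 1 (0.0621), with no filter on TPM (0.0521) and with only the D0 and W6 libraries in the fit (0.105). The W12 fall lost it without D0 replicate 2 (adjusted *P* = 0.0952), W12 replicate 1 (0.0785) or W12 replicate 2 (0.0679), and with no filter (0.051). An antisense gene with a mean of 0.36 TPM shares 634 bases with exons of *Itgav*, and whether reads were counted by strand is not given in the sources used here.

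Promoters of *Itgb5*, *Itgb8* and *Itgb6* are shown here because these were the integrins called at W1 or W2. *Itgb5* and *Itgb8* rose at both timepoints, and *Itgb6* fell at W2 without a call at W1. RefSeq windows of 250 bases before a transcription start (GRCm38.p6) were found for 8 of the 10 integrins, 10 windows in all, with none for *Itga6* and *Itgb4*. Printed 5′ to 3′ on the gene's strand are the windows of *Itgb5* (chr16:33829415-33829664, plus strand), of *Itgb8* (chr12:119238277-119238526, minus strand) and of the second annotated start of *Itgb6* (chr2:60673694-60673943, minus strand). Capitals mark a SOX core motif (AACAAT or, on the other strand, ATTGTT) or a GC box (GGGCGG or CCGCCC).
*Itgb5*: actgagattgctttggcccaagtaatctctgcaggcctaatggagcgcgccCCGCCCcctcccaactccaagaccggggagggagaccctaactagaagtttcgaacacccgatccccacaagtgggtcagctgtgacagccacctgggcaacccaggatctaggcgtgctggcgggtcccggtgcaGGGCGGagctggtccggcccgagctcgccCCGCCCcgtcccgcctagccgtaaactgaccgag
*Itgb8*: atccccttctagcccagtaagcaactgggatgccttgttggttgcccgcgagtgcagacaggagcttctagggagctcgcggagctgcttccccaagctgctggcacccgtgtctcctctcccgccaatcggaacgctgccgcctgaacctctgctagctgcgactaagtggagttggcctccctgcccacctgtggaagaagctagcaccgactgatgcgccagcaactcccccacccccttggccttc
*Itgb6*: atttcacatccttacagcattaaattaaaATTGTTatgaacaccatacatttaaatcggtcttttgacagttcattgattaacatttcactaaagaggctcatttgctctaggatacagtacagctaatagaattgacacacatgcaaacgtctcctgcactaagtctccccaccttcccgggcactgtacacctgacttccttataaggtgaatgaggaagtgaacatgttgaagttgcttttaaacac
The SOX core was present in 1 of the 10 integrin windows, that of the second start of *Itgb6*, from 221 to 216 bases before it, and in 9.42% of all 32851 windows of this length. The GC box was present in 5 of the 10, namely the windows of *Itgb1*, *Itga5* and *Itgb5* and both of *Itga3*, and in 32.7% of all windows. The window at the outer start of *Itgb6* (chr2:60722604-60722853) held none of the 3 motifs. The *Itgb5* window held the GC box at 3 places and the *Itgb8* window printed above holds neither motif. An AP-1 site (TGANTCA) was in none of the 10 and in 6.75% of all windows. A match in these letters describes the sequence and is not evidence of binding.

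The β1 subunit rose late. *Itgb1* (chromosome 8, 128685654 to 128733200 on the plus strand), the common partner of α2, α3 and α5, had 123 and 130.3 TPM at D0, 110.0 and 100.7 at W1, 104 and 94.6 at W2 and 92.5 and 127 at W6. It had 196 and 241 TPM at W12, above all 8 earlier libraries. *Itgb1* rose by 0.78 at W12 (SE 0.18, adjusted *P* = 0.0089), 1.73 times the mean TPM at D0, and its change was between −0.35 and −0.22 at the other timepoints, with no call. Without W12 replicate 2 the rise was 0.63 (adjusted *P* = 0.0653).

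*Itga5* (chromosome 15, 103344286 to 103366763 on the minus strand), the fibronectin-binding partner of β1, had 2.25 and 5.14 TPM at D0, between 3.73 and 5.64 TPM in the 6 libraries of W1, W2 and W6, and 6.37 and 12.5 TPM at W12. Both W12 libraries were the highest of the 10, and they differed from each other by more than any earlier pair did in TPM. *Itga5* rose by 1.16 at W12 (SE 0.35, adjusted *P* = 0.0273), 2.56 times the mean TPM at D0, but not without D0 replicate 1 (0.70, adjusted *P* = 0.138) or W12 replicate 2 (0.72, adjusted *P* = 0.188), with no filter on TPM (0.0951) or with only the D0 and W12 libraries in the fit (0.1). Endothelial cells also express *Itga5* and *Itgb1*, and W12 replicate 2, the higher of the pair for both genes, was also the higher for the summed endothelial markers (105 against 47.8 TPM). A further subunit gene moved with these markers, *Itgb3*, known from endothelium and platelets, which had 0.621 and 1.28 TPM at W12 and at most 0.0501 TPM in the 8 earlier libraries. The summed fibroblast markers were 13.7 and 28.1 TPM at W12, nearly all of it *Dcn* (13.2 and 27.2 TPM), and at most 4.06 TPM at D0 to W2. The part of either kind of RNA in the W12 values was not tested.

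**Figure D3:**
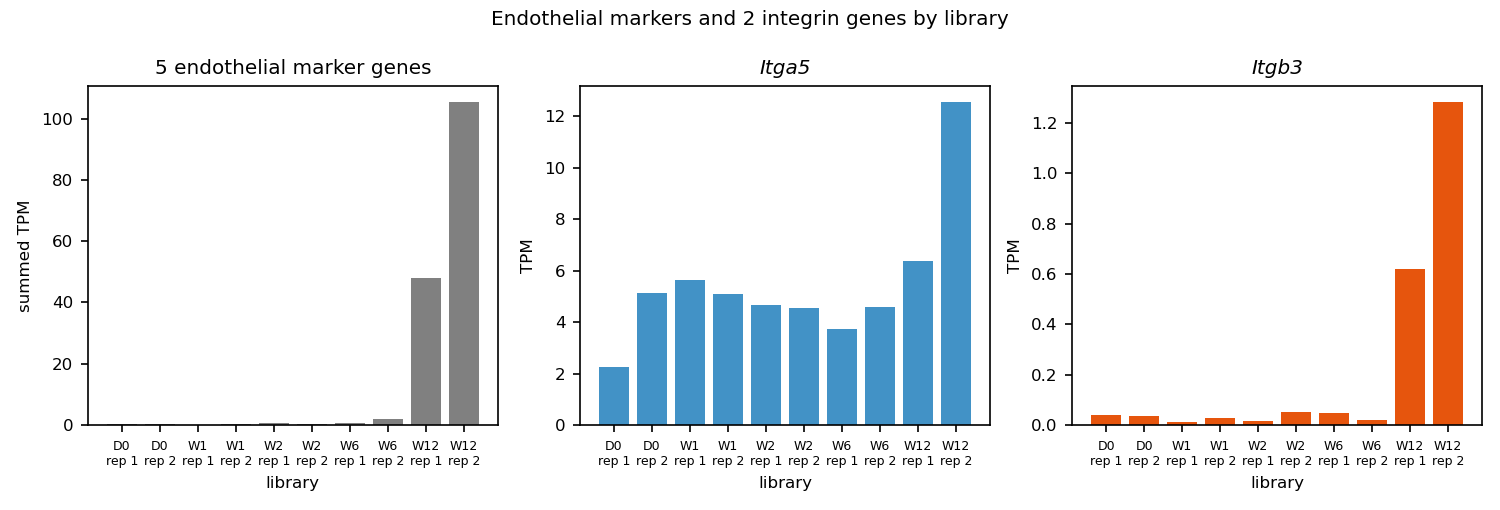
Summed TPM of 5 endothelial markers beside the TPM of *Itga5* and *Itgb3* in each of the 10 libraries, by timepoint. The endothelial sum is 47.8 and 105 TPM in the W12 libraries and at most 2.00 TPM in the others. *Itga5* and *Itgb3* are highest in W12 replicate 2.

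*Itga2* (chromosome 13, 114833081 to 114932100 on the minus strand), the collagen-binding partner of β1, dipped and returned. It had 8.77 and 10.3 TPM at D0, 11.9 and 13.9 at W1, 5.90 and 5.28 at W2, 0.770 and 5.18 at W6 and 11.0 and 11.5 TPM at W12. The W6 replicates were the furthest apart of any pair of this gene, with 1 of them near that of W2. *Itga2* fell by −1.67 at W6 (SE 0.47, adjusted *P* = 0.0263), a call that was lost without D0 replicate 1 (adjusted *P* = 0.0531) or D0 replicate 2 (−1.56, adjusted *P* = 0.122), with no filter on TPM (0.104) or with only the D0 and W6 libraries in the fit (0.149). The size of the fall hung on the W6 pair, at −0.77 without W6 replicate 1 and −2.57 without W6 replicate 2. Of 6 fibroblast markers *Dcn* had 51.2 TPM in W6 replicate 2, while the other 5, the collagen genes among them, were between 0.0383 and 0.55 TPM there.

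Shares within the family do not depend on how a library was scaled. The 10 genes summed to 647 and 966 TPM at D0, between 735 and 796 TPM at W1 and W2, 448 and 459 TPM at W6 and 527 and 619 TPM at W12. The ratio of summed alpha to summed beta TPM was 1.14 and 1.30 at D0 and between 0.667 and 0.827 in the 4 libraries of W6 and W12, with no overlap. Of the summed beta TPM, *Itgb4* held 46.4% and 55.1% at D0 but 14.6% and 18.7% at W12. *Itgb1* held 40.7% and 31.0% at D0, 26.6% and 24.7% at W2 and 67.9% and 66.1% at W12. *Itgb5* held 8.94% and 10.3% at D0, 26.1% and 26.2% at W2 and 9.32% and 9.25% at W12. *Itga6* held 56.8% and 53.1% of the summed alpha TPM at D0 and 69.7% and 65.3% at W12, and *Itga3* held 27.0% and 32.9% at D0, 38.6% and 41.2% at W2 and 10.3% and 13.1% at W12. Within the sum of *Itgb5*, *Itgb6* and *Itgb8* alone, the share of *Itgb6* went from 26.9% and 23.997% at D0 to 2.95% and 4.25% at W2 and 34.2% and 27.3% at W12. The share of *Itgb8* in the same sum was 4.10% and 1.45% at D0 and 12.4% and 11.97% at W12. With 2 libraries against 2, an exact two-sided permutation test cannot give a *P* below 0.333, so the shares are given without a test.

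**Figure D4:**
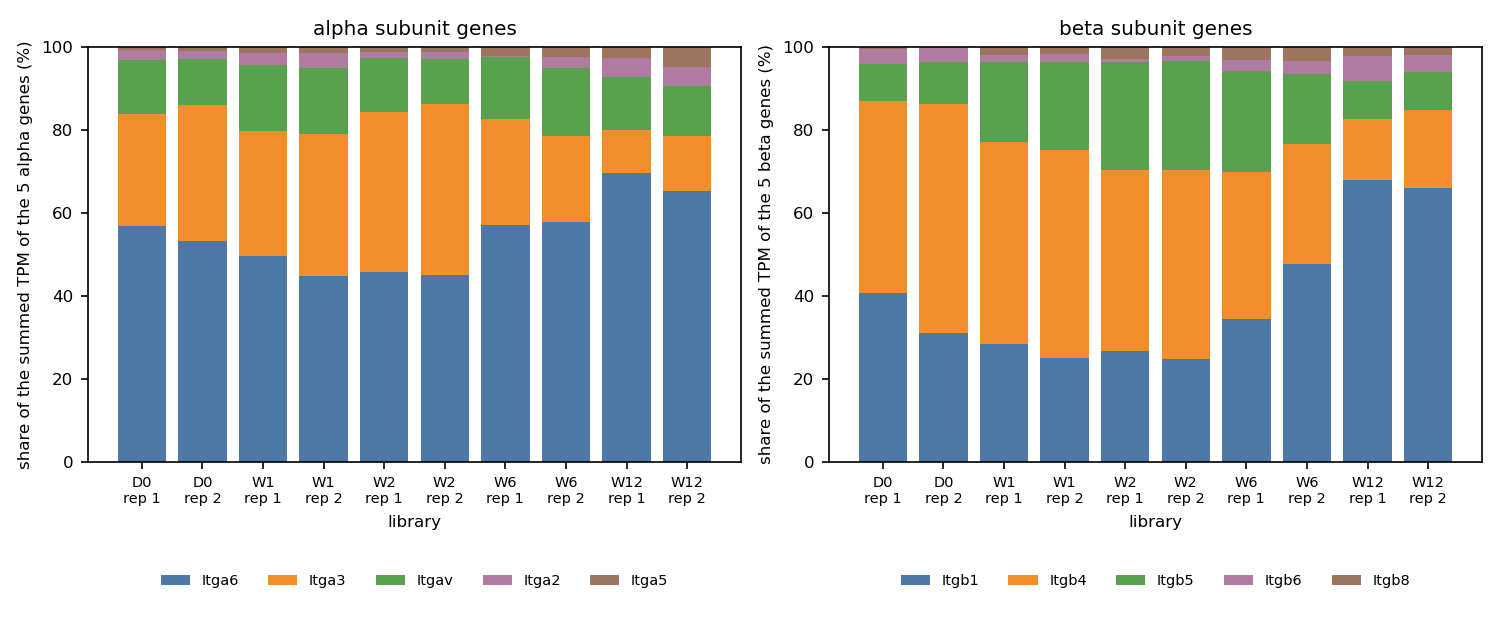
Share of each subunit in the summed TPM of the alpha subunits and of the beta subunits in each of the 10 libraries (percent, stacked from 0 to 100), by timepoint. Of the beta subunits *Itgb4* holds the largest share in both D0 libraries, 46.4% and 55.1%, and *Itgb1* does in both W12 libraries, 67.9% and 66.1%.

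The steps between neighbouring timepoints were compared in the same fit. From W1 to W2, limma with Benjamini-Hochberg adjustment called none of the 10, where 0.0458% of all genes tested rose and 0.0686% fell, and at an unadjusted *P* under 0.05 there were 3, *Itga2* (−1.07), *Itgav* and *Itgb6* (−0.69), all lower at W2, where 7.86% of all genes were lower at that threshold. From W2 to W6, 1 rose and 4 fell, against 7.99% and 8.31% of all genes. The rise was that of *Itgb6* (0.82, adjusted *P* = 0.0435), and the falls were those of *Itga3* (−1.78, adjusted *P* = 0.00674), *Itga6* (−0.68, adjusted *P* = 0.0477), *Itgb4* (−1.01, adjusted *P* = 0.0408) and *Itgb5* (−0.89, adjusted *P* = 0.0452). Most of these lay close to the threshold. None of the 5 was called without W2 replicate 1, *Itga3* was the 1 called without W2 replicate 2 or without W6 replicate 2, and *Itga3* and *Itgb5* were called without W6 replicate 1. Without W6 replicate 2 *Itga2* was called as well (−1.89, adjusted *P* = 0.0043). From W6 to W12, 3 rose and 1 fell, against 6.66% and 13.5% of all genes. *Itga2* (1.89, adjusted *P* = 0.0245), *Itgb1* (0.99, adjusted *P* = 0.00761) and *Itgb6* (0.94, adjusted *P* = 0.0228) rose and *Itgb5* fell (−0.83, adjusted *P* = 0.0482). The fall of *Itgb5* was called in 3 of 13 alternative settings. It lost its call after median-ratio scaling (−0.68, adjusted *P* = 0.144) or quantile normalization (0.11). The same held at a pseudocount of 0.1 (0.0505), without a trend (0.0615) and with the replicate block (0.066). Without W12 replicate 2 none of the 4 was called, without W12 replicate 1 *Itgb1* was, and without W6 replicate 1 *Itgb1* and *Itga2* were, with the rise of *Itga2* at 0.98. The 10 integrins had a median of 0.36 at this step, where all genes had one of −0.16, or of −0.02 with median-ratio scaling.

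Integrin ligands of the matrix were mostly lower at W6. Of 17 listed, 13 were tested, and none rose and 2 fell at W1, none rose and 3 fell at W2, 1 rose and 10 fell at W6, and 2 rose and 5 fell at W12. Over all genes tested 5.79% rose and 4.1% fell at W1, 9.06% and 6.64% at W2, 18.3% and 14.1% at W6 and 17.9% and 25.1% at W12. Under the alternatives 0 to 2 fell at W1 (0 without W1 replicate 2, 1 without D0 replicate 2), 1 to 3 at W2 (1 without W2 replicate 2), 4 to 10 at W6 and 4 to 5 at W12. At W6 1 to 3 rose (3 without W6 replicate 1), and at W12 1 to 3 rose (3 without D0 replicate 2). The median log2 change of the 13 was −1.26 at W6 and −0.13 at W12. At W12 the fallers were *Thbs1*, *Npnt*, a ligand of α8β1, and the laminin chains *Lamb3*, *Lamc1* and *Lama5*. *Thbs1*, thrombospondin 1, which can activate latent TGF-beta, had 787 and 1679 TPM at D0 and 53.9 and 61.2 TPM at W12 (−4.30, adjusted *P* = 0.000129). It fell at the earlier timepoints too, though no matrix ligand was called at W1 without W1 replicate 2. *Thbs1* is also induced by serum and stress, and its D0 level ran with the stress genes given above. The 2 that rose were *Tnc*, tenascin C, and *Spp1*, osteopontin, both ligands of αv integrins. *Spp1* was listed at 0 in D0 replicate 1 and at 0.0672 TPM in D0 replicate 2, and had 4.47 and 5.39 TPM at W12 (2.52, adjusted *P* = 0.00088). It reached the filter of a mean of 1 TPM only through its W12 level, so its count among the genes that rose supports nothing about the list.

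Genes of latent TGF-beta, the ligand of αvβ6 and αvβ8, changed in both directions. Of 7 tested, none was called at W1, 1 rose at W2 (*Tgfb3*), 2 rose and 2 fell at W6, and 1 rose and 3 fell at W12, beside the shares of all genes given for the matrix ligands. Under the alternatives 0 to 2 rose and 1 to 3 fell at W6 (1 rise without D0 replicate 2 or W6 replicate 2), and 0 to 1 rose and 2 to 4 fell at W12, the 0 coming from the filter of 5 TPM, which *Lrrc32* did not reach. The rise at W12 was that of *Lrrc32*, which holds latent TGF-beta on the cell surface, with 0.649 and 0.329 TPM at D0 and 3.93 and 9.75 TPM at W12 (2.30, adjusted *P* = 0.0049). *Lrrc32* had already risen at W6, with 2.48 and 7.26 TPM (1.86, adjusted *P* = 0.0169), where the summed endothelial markers were 0.764 and 2.00 TPM and *Dcn* 1.46 and 51.2 TPM. The higher library of each timepoint was the same for *Lrrc32* and for these markers at W6 and W12, and their part in its rise was not tested. *Ltbp4*, a latent TGF-beta binding protein of the matrix, had 89.5 and 190 TPM at D0 and 18.8 and 28.9 TPM at W12 (−2.43, adjusted *P* = 0.000679).

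Proteins that activate integrins or tie them to actin were tested as a list of 22, and at W1 2 rose and none fell, at W2 3 rose and 1 fell, at W6 5 rose and 4 fell, and at W12 5 rose and 8 fell. The shares of all genes were those given for the matrix ligands at the same timepoints. Under the alternatives 1 to 4 rose and 0 to 1 fell at W1, and 3 to 5 rose and 0 to 2 fell at W2. At W6, 3 to 6 rose (3 without D0 replicate 1 or W6 replicate 2) and 0 to 5 fell (1 without D0 replicate 2, 2 without W6 replicate 2). At W12, 3 to 6 rose (3 without W12 replicate 2) and 4 to 10 fell (4 without W12 replicate 1). *Fermt2*, kindlin-2, a co-activator of β1 integrins, had 0.358 and 0.209 TPM at D0, 5.23 and 9.24 at W1, 5.68 and 4.19 at W2, 11.2 and 10.1 at W6 and 11.2 and 23.3 TPM at W12. It was low in both D0 libraries and rose at each of the 4 timepoints, by 2.64 at W1 (adjusted *P* = 0.00263) and 3.75 at W12 (adjusted *P* = 0.000109). The kindlin of epithelia, *Fermt1*, had 96.1 and 144 TPM at D0 and 97.5 and 91.05 TPM at W12 and was not called there (−0.32), except without D0 replicate 1 (−0.61, adjusted *P* = 0.0311). The largest fall in the list was that of *Tns1*, tensin 1, a linker of integrins to actin, with 13.2 and 29.4 TPM at D0 and 2.30 and 2.75 TPM at W12 (−2.56, adjusted *P* = 0.000485). The plot of changes by gene list sets the integrins beside these groups.

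**Figure D5:**
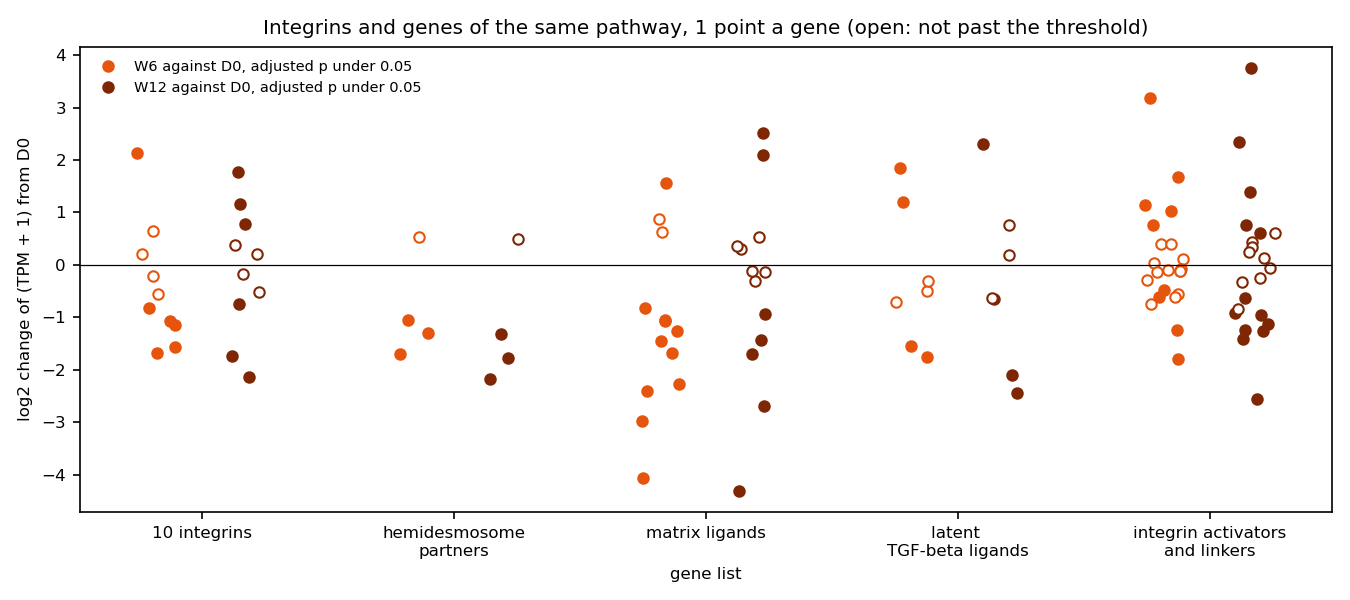
Log2 change in TPM + 1 against D0 at W6 and W12 for the genes tested in each list, with a point per gene, filled where the adjusted *P* was under 0.05. The hemidesmosome partners have medians of −1.17 at W6 and −1.54 at W12, and the matrix ligands have −1.26 at W6.

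Other integrin subunits had low TPM. Of 17 listed, 2 reached a mean of 1 TPM, and neither was called at any timepoint in the main fit. Under some alternatives, of which the unfiltered one tests more of the list, genes of this list were called at W1, W2 and W12. *Itga2b*, the platelet subunit, had the highest mean of them, with 10.5 and 3.57 TPM at D0 and 10.3 and 6.85 TPM at W12 (0.38, with no call). Its change was called at 1.04 without D0 replicate 1 (adjusted *P* = 0.0187) and was −0.29 without D0 replicate 2. *Itga7*, a laminin-binding partner of β1, had 0.825 and 3.37 TPM at D0 and 3.82 and 4.99 TPM at W12. The leukocyte subunit genes *Itgal*, *Itgam*, *Itgax* and *Itgb2* were at or below 0.368 TPM in all 10 libraries. *Itgb7*, another leukocyte subunit, had 0.0913 and 0.0709 TPM at D0, at most 0.394 TPM at W1 to W6, and 0.545 and 1.29 TPM at W12. 

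Likeness of pattern was described by Pearson's *r* of log2(TPM + 1) over the 10 libraries, which share their timepoints and scaling. The closest of the other integrins to *Itgb1* was *Itgb6* (*r* = 0.783), to *Itga5* was *Itgb1* (0.709), to *Itgav* was *Itga3* (0.849), to *Itga6* was *Itgav* (0.756), to *Itga2* was *Itga6* (0.694), to *Itgb5* was *Itga3* (0.622) and to *Itgb8* was *Itgb5* (0.538). Among all genes tested, those most like *Itgb8* were *Nebl* (0.988), *Nfe2l3* (0.984) and *Myo5a* (0.973). Those most like *Itga3* were *Pcdhgb6* (0.994), *Ltbp4* (0.993) and *Tgfbr3* (0.988), and those most like *Itgb4* were *Zxdc* (0.993), *Camta2* (0.990) and *Ppip5k1* (0.989).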

How the data were processed

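RNA-seq of 10 EpdSC libraries, 2 replicates at each of D0, W1, W2, W6 and W12, was analysed, with groups and replicate numbers taken from the sample labels. Libraries were made with a low-input kit, and the authors quantified transcripts with Salmon 1.4.0 on a GENCODE index of GRCm38 that included the transgene, then summed them with Tximport 1.12.3 and deposited TPM per gene. No depth can be read from TPM, so the precision behind each sample is unknown. Another deposited file, of placode cells, holds only the authors' own comparison and was not used.

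Of 54332 genes, the 13110 whose TPM averaged 1 or more were tested on the scale of log2(TPM + 1). One fit of all libraries by timepoint was made in limma 3.58.1 (R 4.3.3), using eBayes with a trend and Benjamini-Hochberg adjustment over all genes tested. The scale understates changes of low genes. The study used DESeq2 on counts, which TPM do not permit. Replicates are called biological, but the mice behind each are not given in the sources used here. *P* values set a change against the spread between these replicates, which the fit shared over the 5 timepoints. The integrins and all gene lists were chosen with earlier results of these data known. Named besides the integrins are every hemidesmosome partner and, of each other list, the largest called rise and fall at W12 and the gene with the highest mean TPM. Names of genes behind a count of 5 or fewer, and *Itgb3*, *Itga7*, *Itgb7*, the keratins and single markers named, *Fermt2* and *Lrrc32* before W12 and the leukocyte subunits, were given after their values were seen. Positions come from GENCODE M21 (GRCm38) and promoters from RefSeq (GRCm38.p6). Alternatives were no filter or a minimum average of 5 TPM, a pseudocount of 0.1, quantile normalization or median-ratio scaling, eBayes without a trend, fits of only a comparison's own 4 libraries, the replicate number as a block, and each library left out in turn. The fit was first tested on simulated data. Summaries and plots were made in Python 3.11.15 (numpy 2.4.6, pandas 2.3.3, matplotlib 3.10.9).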

Additional observations from a re-analysis of the deposited data

How the results depend on the processing

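Of the integrin changes, all 4 rises of *Itgb8*, the W2 rise of *Itgb5* and the W12 falls of *Itga3* and *Itgb4* were called under each alternative. The numbers of integrins called moved as follows, by comparison. At W1 against D0 there was 1 call with no filter on TPM, after median-ratio scaling or with only the 4 libraries of the comparison, and 1 to 2 with a library left out. At W6 there were 3 with no filter and 1 with only the 4 libraries. At W12 there were 3 to 6 with a library left out. From W2 to W6 there was 1 with no filter, 2 after median-ratio scaling, without a trend or with only the 4 libraries, 3 with the replicate block and 0 to 2 with a library left out. From W6 to W12 there was 1 with no filter, 0 with only the 4 libraries and 0 to 4 with a library left out. Fewer samples enter the 4-library fits, and more genes the unfiltered one. The cause of the other moves was not tested.

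Over all genes, the number that differed at W1 against D0 was 606 with no filter, 411 with only the 4 libraries and 377 to 1773 with a library left out, and at W2 it was 1011, 1086 and 652 to 2568. At W6 it was 1094 with only the 4 libraries and 2356 to 5047 with a library left out, and at W12 it was 3362 to 6168. From W1 to W2 it was 7 at a pseudocount of 0.1, 80 with only the 4 libraries, 6 with the replicate block and 0 to 5 with a library left out. From W2 to W6 it was 940 with no filter, 966 with only the 4 libraries, 1396 with the replicate block and 207 to 2626 with a library left out, and from W6 to W12 887 with only the 4 libraries and 761 to 2846 with a library left out. The difference of replicate 1 from replicate 2 was correlated over genes between timepoints, to see whether same-numbered libraries shared deviations. These correlations were −0.113 (D0 and W1), −0.129 (D0 and W6), −0.115 (W6 and W12) and 0.182 (W1 and W2). No label ties a number to a shared mouse, litter or day. The replicate block moved no other count by over 1.5 times, and crossed numbers, chosen after seeing the data, gave 1225 genes at W1, 4291 at W6 and 2666 from W6 to W12.

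Signs turned for changes that were not called. *Itgb4* at W1 was −0.0073 after median-ratio scaling. With a library left out, *Itga3* ran from −0.51 to 0.43 and *Itgb4* from −0.25 to 0.48 at W1, and *Itga3* from −0.26 to 0.69, *Itga5* from −0.13 to 0.78, *Itgav* from −0.42 to 0.016 and *Itgb4* from −0.42 to 0.30 at W2. *Itga5* ran from −0.26 to 0.66 and *Itgb1* from −0.45 to 0.0096 at W6, and *Itgb5* from −0.51 to 0.15, *Cd151* from −0.0068 to 0.99 and *Itga2b* from −0.29 to 1.04 at W12. Between timepoints, *Itga6* ran from −0.25 to 0.023 (W1 to W2), *Itgb1* from −0.10 to 0.36 and *Itgb8* from −0.32 to 0.022 (W2 to W6), and *Itgav* from −0.038 to 0.19 (W6 to W12). Depth limits are unknown, since TPM hold no counts.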
